A study of Danio rerio with 6 samples.

Results

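The genes described here are those of the proteasome and its regulators in cells sorted as Müller glia (MG) from the zebrafish retina. They were taken as every row of the expression table whose gene symbol begins with psma, psmb, psmc, psmd, psme, psmf or psmg in either case, which gave 57 of 30689 rows. Of these, 48 encode constitutive subunits, assembly chaperones and regulators, and 8 were set apart as the immunoproteasome set (rows named for psmb8, psmb9, psmb10, psmb11, psme1 and psme2). The remaining row, psmc3ip, shares only the prefix: its product is a partner of meiotic recombination enzymes and no proteasome subunit. RNAseq was carried out on GFP+ cells that had been sorted by FACS from adult retinas, with 2 libraries in each of 3 groups. The apobec2 KD group came from retinas with a needle poke injury and a morpholino (an antisense oligonucleotide that blocks the translation or splicing of an RNA) against apobec2a and apobec2b, taken at 2 days post injury (dpi). The injured group had the same injury and time without that knockdown, and its columns in the table are named for a control morpholino. The uninjured group received no injury. For all 6 libraries the labels give adult gfap:GFP fish, in which a glial promoter drives GFP, whereas the study also sorted cells from a second line, in which tuba1a sequence drives GFP, and describes the cells of injured retinas as coming from it, so injury, the control morpholino and the reporter line cannot be told apart in a comparison with the uninjured group. Libraries are called a and b within a group by the index in the table's column names.

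The proteasome is the large protease that degrades proteins tagged with ubiquitin. Its barrel-shaped 20S core has outer rings of alpha subunits, which gate entry, and inner rings of beta subunits, among which those encoded by psmb5, psmb6 and psmb7 hold the active sites. The 19S cap recognises, unfolds and feeds in the substrate with a ring of ATPases (psmc genes) and a set of other subunits (most psmd genes). In immune cells and under interferon, the products of psmb8, psmb9 and psmb10 take the place of the active beta subunits and form the immunoproteasome, which makes peptides for antigen presentation, and psme1 and psme2 encode its PA28 activator. These roles are known mainly from yeast and mammals.

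Values are FPKM, fragment counts scaled to transcript length and library size, so levels of different genes can be set side by side. Fold changes are log2 differences of FPKM + 1 with their standard error (SE), which understate the change of genes at low FPKM, and adjusted p-values come from limma with Benjamini-Hochberg adjustment over all rows tested, with calls made at 0.05. In MG marker genes the summed level was 3049 to 3928 FPKM over the 6 libraries, and none of the 12 was at 0 in any of them. The sum covers changes in both directions, since 7 of the 12 were called higher and 5 lower in the injured than in the uninjured group, and 1 higher and 3 lower in the apobec2 KD than in the injured group. Of all rows tested, 28.8% were called higher and 18.4% lower in the first comparison, and 3.03% and 6.0% in the second. fabp7a, a fatty acid binding protein gene, was at 860 and 812 FPKM in apobec2 KD libraries, 1156 and 1080.1 FPKM in injured ones and 169.7 and 184 FPKM in uninjured ones. glula, the glutamine synthetase gene, was at 750 and 783 FPKM, 466 and 463 FPKM, and 1196 and 1280.4 FPKM in the same order of groups. The part of these shifts in the proteasome values was not tested. Rod marker genes summed to 5989 and 5760 FPKM in apobec2 KD libraries, 5481 and 7720 FPKM in injured ones and 15662 and 16325 FPKM in uninjured ones, so that RNA of rods was in all libraries and highest in the uninjured ones. Cone marker genes (6 rows) summed to 926 and 693 FPKM, 1684 and 1805 FPKM, and 2442 and 2303 FPKM in the same order of groups. This sum too covers both directions, since 2 of the 6 were called higher and 3 lower in the injured than in the uninjured group. Inner retinal neuron marker genes (10 rows) summed to 1551 and 1563 FPKM, 1513 and 1475 FPKM, and 1994 and 2057 FPKM in that order. Of 9 tested, 1 was called higher and 4 lower in the injured than in the uninjured group. The row apobec2a was at 0.39 and 0.38 FPKM in apobec2 KD libraries, 0.25 and 0.51 FPKM in injured ones and 0.15 and 0.41 FPKM in uninjured ones, and a row listed as APOBEC2 (2 of 2) was at 16.8 and 15.8 FPKM, 8.60 and 8.19 FPKM, and 1.12 and 0 FPKM in the same order of groups. A morpholino need not lower the RNA that it binds, so these levels do not check the knockdown. The sum of FPKM over all rows was 946401 and 962888 in the apobec2 KD libraries, 1128958 and 1171101 in the injured libraries and 985941 and 975192 in the uninjured libraries, highest in the injured group. Nothing in the labels says that the libraries came from separate fish, so p-values measure the spread between these libraries, which may be technical.

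Nearly all proteasome genes were higher in the cells sorted from injured retinas than in those sorted from uninjured retinas. Of the 55 rows that reached 1 FPKM in at least 2 of the 4 libraries compared, 51 were higher in the injured group, 1 was lower and 3 did not pass the test, where 28.8% of all 17195 rows tested were higher and 18.4% were lower. The rows not tested were the 2 named PSMB11 (1 of 2) and PSMB11 (2 of 2). The 51 included all 35 member rows for subunits of the 20S core and 19S cap and all 7 assembly chaperones. They also included all 6 immunoproteasome genes that were tested, 2 of 6 regulators and psmc3ip. The 35 count paralogs separately and leave out psmb5, adrm1b and shfm1, whose rows do not begin with a listed prefix. The median log2 fold change was 1.21 over the 55 rows, against 0.08 over all rows tested. Quantile normalization moved the median of all rows to -0.10 and the split of all calls to 3811 higher and 4707 lower, against 4960 higher and 3159 lower as deposited, and 50 members were still higher. Leaving out 1 library gave 42 members higher without injured library a, 42 without injured library b, 46 without uninjured library a and 45 without uninjured library b. In these bulk samples, fewer cells of a type and less RNA per cell cannot be told apart.

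The summed level of the 35 core and cap subunits shows how evenly the libraries of a group behaved. It was 2077 and 1882 FPKM in apobec2 KD libraries, 2569 and 2537 FPKM in injured ones and 1061 and 1060 FPKM in uninjured ones. The apobec2 KD libraries therefore lay between the other groups, closer to the injured ones, and no 2 groups overlapped. As a share of all FPKM in the library, the same genes took 0.220% and 0.196% in the apobec2 KD libraries, 0.228% and 0.217% in the injured libraries and 0.108% and 0.109% in the uninjured libraries. On this scale the apobec2 KD and injured libraries overlapped, while both stayed above the uninjured ones. The row of psmb5, which is not a member, is left out of these sums and shares.

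**Figure D1:**
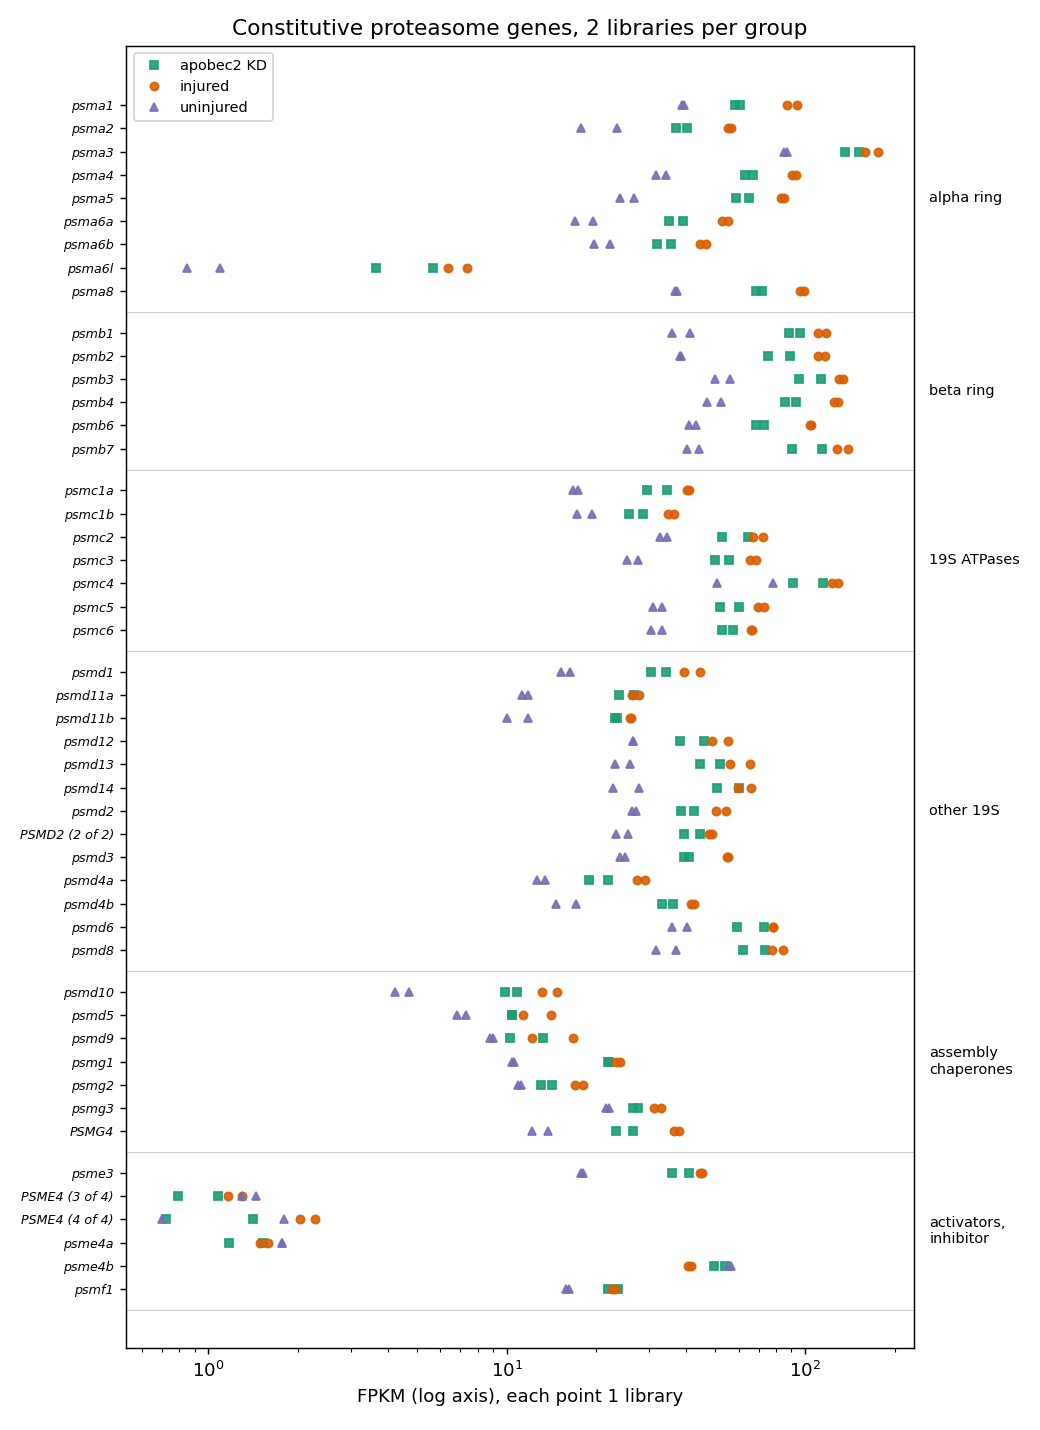
FPKM of the 48 constitutive proteasome genes on a log axis, grouped by role, with 1 point for each library (squares for apobec2 KD, circles for injured, triangles for uninjured). In the core and cap subunits the uninjured libraries lie lowest and the injured ones highest, save that apobec2 KD and injured libraries overlap in psmd11a and psmd14, and psme4b near the bottom shows the opposite order.

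Alpha ring genes, which form the gated outer rings of the core, were all higher in the injured group, with log2 fold changes of 0.95 to 2.00 and a median of 1.41. The largest change in the ring was that of psma6l, a relative of psma6 and by far the least abundant of the 9. psma6l was at 5.65 and 3.65 FPKM in apobec2 KD libraries, 7.37 and 6.37 FPKM in injured ones and 0.850 and 1.09 FPKM in uninjured ones. The log2 fold change of injured over uninjured was 2.00 ± 0.13 (SE, adjusted p = 0.00157 by limma). The smallest was that of psma3, the most abundant alpha gene, at 153 and 136 FPKM in apobec2 KD libraries, 176 and 159 FPKM in injured ones and 87.3 and 85.0 FPKM in uninjured ones. Its log2 fold change was 0.95 ± 0.10 (adjusted p = 0.00441 by limma), and the injured libraries were above the uninjured ones without overlap. psma8, whose symbol RefSeq (GRCz12tu) also gives under the older name psma7, was at 71.9 and 68.5 FPKM in apobec2 KD libraries, 99.7 and 96.4 FPKM in injured ones and 36.7 and 37.4 FPKM in uninjured ones. psma1, psma2, psma4, psma5, psma6a and psma6b lay between 45.6 and 92.1 FPKM on average in the injured group, and between 18.2 and 39.0 FPKM in the uninjured group. Without injured library a or injured library b the call on psma2 was lost.

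Beta ring genes showed the same direction over a narrower range, 1.29 to 1.64 on the log2 scale. The genes of catalytic subunits with a row were psmb6, for the caspase-like site, and psmb7, for the trypsin-like site. psmb7 was at 115 and 90.4 FPKM in apobec2 KD libraries, 129 and 140 FPKM in injured ones and 44.3 and 40.3 FPKM in uninjured ones, with a log2 fold change of injured over uninjured of 1.64 ± 0.11 (adjusted p = 0.0017 by limma), the largest in the ring. psmb6 was at 68.6 and 73.2 FPKM in apobec2 KD libraries, 105 and 104 FPKM in injured ones and 40.9 and 43.2 FPKM in uninjured ones, and changed by 1.29 ± 0.09 on the log2 scale (adjusted p = 0.00195 by limma), the smallest in the ring. Among the subunits without an active site, psmb1 had 96.5 and 88.2 FPKM in apobec2 KD libraries, 117 and 111 FPKM in injured ones and 41.1 and 36.0 FPKM in uninjured ones, and psmb3 had 113 and 95.3 FPKM in apobec2 KD libraries, 130 and 134 FPKM in injured ones and 56.1 and 49.9 FPKM in uninjured ones. Their log2 fold changes were 1.55 ± 0.11 and 1.30 ± 0.11, so all 6 member genes moved by similar amounts. All 6 were called higher in the injured group by limma, as were 28.8% of all rows tested. psmb5, the gene of the chymotrypsin-like subunit, has no row of its own among the members. It stands second in a row that also carries a clone name, was seen after the values of the members, and was at 86.7 and 362 FPKM in apobec2 KD libraries, 240.0 and 236 FPKM in injured ones and 163 and 113 FPKM in uninjured ones. Its apobec2 KD libraries lay on either side of both other groups. The log2 fold change of injured over uninjured for this row was 0.80 ± 0.20 (adjusted p = 0.0352 by limma), below the range of the 6 members.

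The 7 genes of 19S ATPases, which unfold the substrate, were all higher in the injured group, by 0.93 to 1.31 on the log2 scale. psmc3 was at 55.5 and 50.2 FPKM in apobec2 KD libraries, 65.5 and 68.5 FPKM in injured ones and 27.6 and 25.4 FPKM in uninjured ones and had the largest change, 1.31 ± 0.10 (adjusted p = 0.00219 by limma). psmc1b had the smallest, 0.93 ± 0.11 (adjusted p = 0.00497 by limma), at 28.7 and 25.8 FPKM in apobec2 KD libraries, 36.4 and 34.7 FPKM in injured ones and 17.2 and 19.3 FPKM in uninjured ones. Its paralog psmc1a was at a similar level, 34.6 and 29.7 FPKM in apobec2 KD libraries, 40.2 and 41.0 FPKM in injured ones and 17.3 and 16.7 FPKM in uninjured ones. Paralogs may share reads, which was not examined, and psmc1a shares its listed locus with the row BX323450.2. psmc4 had the widest spread of the 7, at 50.7 and 78.0 FPKM in the uninjured libraries, and its adjusted p of 0.0287 by limma was the highest of the 35 core and cap subunits. Without injured library a or injured library b, or with no filter on low values, the call on psmc4 was lost.

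Among the 13 other genes of the 19S cap, all were higher in the injured group, by 0.94 to 1.35 on the log2 scale. psmd1, for a large scaffold subunit, had the largest change, 1.35 ± 0.11 (adjusted p = 0.00265 by limma), at 34.2 and 30.5 FPKM in apobec2 KD libraries, 39.2 and 44.6 FPKM in injured ones and 15.2 and 16.4 FPKM in uninjured ones. psmd2, for its partner scaffold, had the smallest, 0.94 ± 0.10 (adjusted p = 0.00397 by limma), at 42.5 and 38.6 FPKM in apobec2 KD libraries, 54.3 and 50.3 FPKM in injured ones and 27.2 and 26.3 FPKM in uninjured ones. The table lists a second row for it, PSMD2 (2 of 2), at nearly the same levels, 44.6 and 39.5 FPKM in apobec2 KD libraries, 48.8 and 47.7 FPKM in injured ones and 25.5 and 23.3 FPKM in uninjured ones. psmd4a and psmd4b encode a ubiquitin receptor of the cap. The first was at 21.9 and 18.9 FPKM in apobec2 KD libraries, 27.4 and 29.1 FPKM in injured ones and 13.5 and 12.7 FPKM in uninjured ones, and the second at 36.2 and 33.1 FPKM in apobec2 KD libraries, 42.4 and 41.5 FPKM in injured ones and 17.1 and 14.7 FPKM in uninjured ones. psmd14, for the enzyme that removes ubiquitin from the substrate, was at 60.0 and 50.9 FPKM in apobec2 KD libraries, 66.3 and 59.8 FPKM in injured ones and 27.8 and 22.8 FPKM in uninjured ones. All 13 were called higher by limma, as were 28.8% of all rows tested.

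The 7 assembly chaperones changed over a wider range, 0.54 to 1.46 on the log2 scale. They were the 20S chaperones psmg1, psmg2, psmg3 and PSMG4 and the 19S base chaperones psmd5, psmd9 and psmd10. psmd10, known as gankyrin in mammals, was at 10.9 and 9.85 FPKM in apobec2 KD libraries, 14.8 and 13.2 FPKM in injured ones and 4.21 and 4.69 FPKM in uninjured ones, and its log2 fold change of injured over uninjured was 1.46 ± 0.11 (adjusted p = 0.00222 by limma). PSMG4 was at 26.5 and 23.2 FPKM in apobec2 KD libraries, 37.9 and 36.3 FPKM in injured ones and 13.8 and 12.2 FPKM in uninjured ones, and changed by 1.45 ± 0.11 (adjusted p = 0.00207 by limma). These were the chaperones that changed most. psmg3 changed least, at 27.5 and 26.6 FPKM in apobec2 KD libraries, 31.3 and 33.0 FPKM in injured ones and 22.1 and 21.5 FPKM in uninjured ones, by 0.54 ± 0.09 (adjusted p = 0.0139 by limma). psmg2 and psmd9 were close to it, at 0.62 ± 0.09 and 0.63 ± 0.17. With a pseudocount of 0.1, no filter on low values, quantile normalization, scaling to the median of ratios or the column index as a block, the call on psmd9 was lost. Leaving out any 1 of the 4 libraries ended the calls on psmg2 and psmg3, leaving out any but injured library b that on psmd5, and leaving out any but injured library a that on psmd9.

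The regulators that bind the ends of the core did not move together. psme3, for the nuclear activator PA28 gamma, was at 40.8 and 35.8 FPKM in apobec2 KD libraries, 45.2 and 44.5 FPKM in injured ones and 18.1 and 17.8 FPKM in uninjured ones. It was higher in the injured group by 1.28 ± 0.09 on the log2 scale (adjusted p = 0.00186 by limma). psmf1, for the inhibitor PI31, was at 22.0 and 23.6 FPKM in apobec2 KD libraries, 22.5 and 23.1 FPKM in injured ones and 15.9 and 16.3 FPKM in uninjured ones, higher by 0.48 ± 0.09 (adjusted p = 0.017 by limma). psme4b, 1 of the genes of the activator PA200, went the other way and was the only member called lower in the injured group. It was at 49.8 and 54.1 FPKM in apobec2 KD libraries, 40.5 and 41.6 FPKM in injured ones and 56.8 and 55.6 FPKM in uninjured ones, a log2 fold change of -0.44 ± 0.09 (adjusted p = 0.0211 by limma). The injured libraries lay below both other groups without overlap. The 3 further PA200 rows were low in every library and were not called. psme4a was at 1.17 and 1.52 FPKM in apobec2 KD libraries, 1.59 and 1.49 FPKM in injured ones and 1.77 and 1.76 FPKM in uninjured ones, PSME4 (3 of 4) was at 0.790 and 1.08 FPKM in apobec2 KD libraries, 1.16 and 1.30 FPKM in injured ones and 1.45 and 1.30 FPKM in uninjured ones, and PSME4 (4 of 4) was at 1.41 and 0.720 FPKM in apobec2 KD libraries, 2.03 and 2.27 FPKM in injured ones and 0.700 and 1.79 FPKM in uninjured ones. Leaving out any 1 of the 4 libraries ended the calls on psme4b and psmf1.

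**Figure D2:**
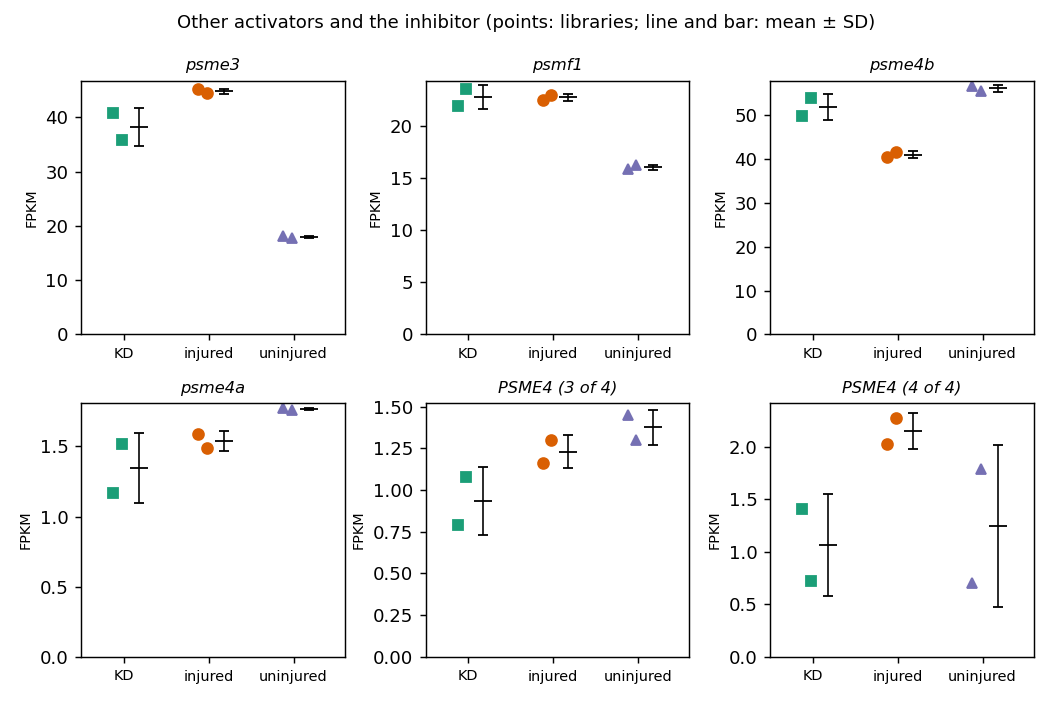
FPKM of the 6 regulator rows other than psme1 and psme2, with 1 point for each library and the mean ± SD of the 2 libraries beside it, from an axis that starts at 0. psme3 and psmf1 are lowest in the uninjured libraries, psme4b is lowest in the injured ones, and the other PA200 rows stay at or under 2.27 FPKM.

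Within each library the ratio of psme4b to psme3 set these levels side by side. It was 1.22 and 1.51 in the apobec2 KD libraries, 0.897 and 0.934 in the injured libraries and 3.14 and 3.12 in the uninjured libraries. PA200 RNA thus exceeded PA28 gamma RNA in the uninjured and apobec2 KD libraries and not in the injured ones. With 2 libraries against 2, an exact two-sided permutation test cannot give a p under 0.333, and all 3 pairs of groups were at that smallest value (n = 2 each). The pair was chosen after the values were seen.

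The immunoproteasome set held the 2 largest differences of injured over uninjured on the log2 scale of FPKM + 1, those of psme1 and psme2, the genes of the PA28 activator. With nothing added, the fold of the group means was 10.4 for psme1 and 7.1 for psme2, against 7.81 for psmc3ip and 7.08 for psma6l. psme1 thus stayed highest on that scale, and psmc3ip, at low FPKM, came before psme2. psme1 (chromosome 24, 12849935 to 12858615, in the coordinates of the table) was at 27.5 and 33.1 FPKM in apobec2 KD libraries, 44.9 and 43.1 FPKM in injured ones and 6.07 and 2.42 FPKM in uninjured ones. It was higher in the injured group by 3.19 ± 0.37 on the log2 scale (adjusted p = 0.00516 by limma). psme2 (chromosome 12, 14425175 to 14443081) was at 14.5 and 14.2 FPKM in apobec2 KD libraries, 30.1 and 23.5 FPKM in injured ones and 4.17 and 3.37 FPKM in uninjured ones, higher by 2.54 ± 0.17 (adjusted p = 0.00172 by limma). The table gives LSM5 at the same locus as psme2, so the split of fragments between the 2 rows is uncertain. In psme1 the uninjured libraries stood further apart, in proportion, than the libraries of either other group, and leaving out either injured library ended its call.

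The catalytic genes of the set were less abundant. PSMB10, on chromosome 4, was at 20.0 and 16.3 FPKM in apobec2 KD libraries, 23.9 and 25.2 FPKM in injured ones and 5.07 and 6.52 FPKM in uninjured ones, higher in the injured group by 1.92 ± 0.14 (adjusted p = 0.00204 by limma). The other 3 rows lie together at chromosome 19, 7728373 to 7767121, beside a further row named abcb3l1, and the division of fragments among them is uncertain. The merged row psmb10,psmb8, which in RefSeq names corresponds to psmb13a and psmb8a, was at 3.77 and 2.45 FPKM in apobec2 KD libraries, 8.91 and 7.84 FPKM in injured ones and 2.51 and 1.35 FPKM in uninjured ones. Row psmb11, an older symbol of psmb12, was at 6.88 and 3.01 FPKM in apobec2 KD libraries, 8.99 and 10.8 FPKM in injured ones and 3.28 and 2.35 FPKM in uninjured ones. psmb9a was at 1.01 and 0.540 FPKM in apobec2 KD libraries, 2.16 and 2.72 FPKM in injured ones and 1.09 and 0.480 FPKM in uninjured ones. The 3 rows were higher in the injured group by 1.70 ± 0.23, 1.52 ± 0.17 and 0.96 ± 0.21 on the log2 scale, with adjusted p of 0.00708, 0.00482 and 0.0247 by limma. Leaving out either injured library ended the calls on psmb10,psmb8 and psmb9a, and leaving out uninjured library b also ended that on psmb9a. PSMB11 (1 of 2) was listed at 0 in all 6 libraries and PSMB11 (2 of 2) in 5 of them, with 0.23 FPKM in injured library a.

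**Figure D3:**
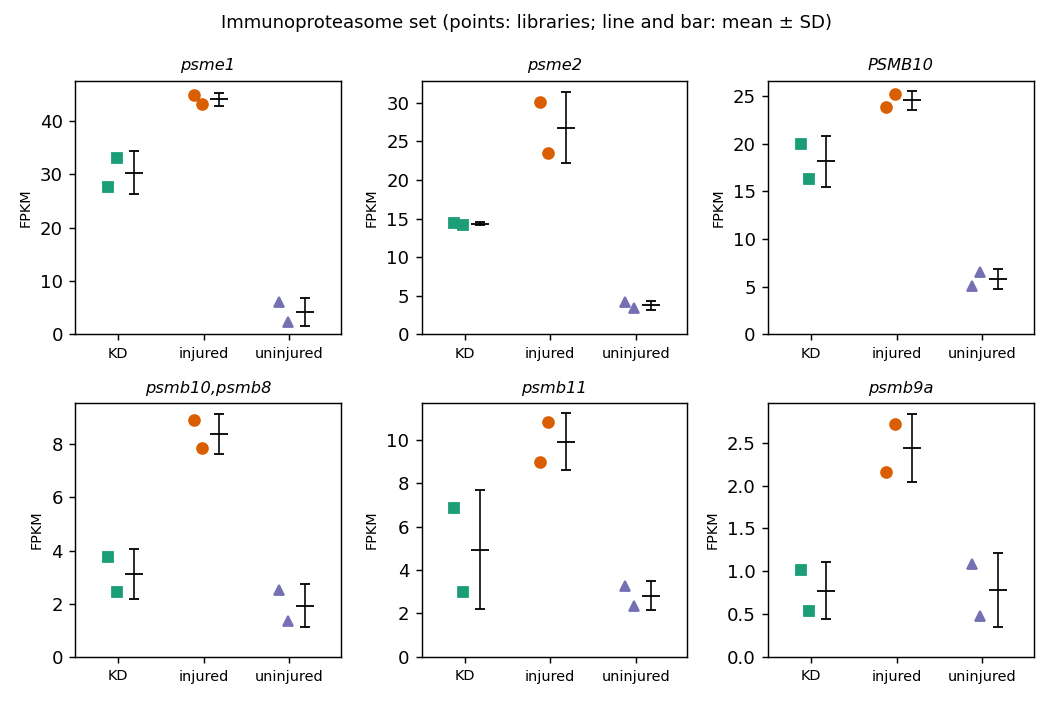
FPKM of the 6 immunoproteasome genes that were tested, with 1 point for each library and the mean ± SD of the 2 libraries beside it, each axis starting at 0. In every panel both injured libraries lie above both apobec2 KD libraries. In the lower panels the apobec2 KD and uninjured libraries overlap. For psmb11, apobec2 KD library a, at 6.88 FPKM, lies closer to injured library a than to either uninjured library.

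Marker genes of microglia and macrophages, cells that carry immunoproteasomes, were detected in the sorted cells. The 15 rows summed to 61.8 and 38.9 FPKM in apobec2 KD libraries, 518 and 521 FPKM in injured ones and 77.5 and 67.8 FPKM in uninjured ones, with none at 0 in any library. Of the 15, 13 were higher in the injured than in the uninjured group and 15 were lower in the apobec2 KD than in the injured group. Over all rows tested, 28.8% were called higher in the first of these comparisons and 6.0% lower in the second. Of 13 tested in apobec2 KD against uninjured, 7 were called higher and 2 lower, against 22.1% and 13.5% of all rows. Most of the uninjured sum came from cd74a, at 40.3 and 38.6 FPKM, and cd74b, at 21.65 and 15.9 FPKM. In apobec2 KD libraries cd74a was at 5.43 and 2.35 FPKM and cd74b at 1.69 and 1.6 FPKM. Neutrophil markers (4 rows) summed to 99.1 and 73.2 FPKM, 135 and 121 FPKM, and 6.11 and 7.89 FPKM in the same order of groups. Most of the sum in apobec2 KD and injured libraries was mmp9. It was at 84.6 and 61.4 FPKM, 121.8 and 106.9 FPKM, and 0.7 and 0.44 FPKM in that order. The other rows, mpx, lyz and npsn, stayed at or under 10.8 FPKM each. Of the 4, 3 were called higher in injured against uninjured, against 28.8% of all rows, and lyz was not. mpx was higher by 2.16 ± 0.18 on the log2 scale (adjusted p = 0.00252 by limma) and npsn by 0.85 ± 0.21 (adjusted p = 0.0346 by limma). In apobec2 KD against injured 0 of the 4 were called. T and NK cell markers stayed at or under 1.04 FPKM in sum in every library. The part that such cells had in the immunoproteasome values was not tested. Per length, the merged row, psmb11 and psmb9a together were lower than the constitutive catalytic genes in every library, and psmb9a alone was 0.0147 and 0.00738 times psmb6 in the apobec2 KD libraries, 0.0206 and 0.0262 times in the injured libraries and 0.0266 and 0.0111 times in the uninjured libraries. The injured and uninjured ratios overlapped (exact two-sided permutation p = 1, n = 2 each). PSMB10 was 0.174 and 0.180 times psmb7 in the apobec2 KD libraries, 0.186 and 0.181 times in the injured libraries and 0.114 and 0.162 times in the uninjured libraries. The comparison of injured with uninjured gave the smallest p of an exact two-sided permutation test, 0.333 (n = 2 each).

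With the apobec2a and apobec2b knockdown, proteasome levels were mostly below those of the injured group, by amounts that few genes carried past the test. Of 55 rows tested, 5 were lower and 0 were higher by limma, against 6.0% of all 17017 rows lower and 3.03% higher, so the share called was near that of the whole table. At an unadjusted p under 0.05, 31 were lower and 1, psme4b, was higher, where 17.2% of all rows were lower and 13.2% were higher at that level. Both apobec2 KD libraries lay below both injured libraries in 49 of the 55 rows, where this held for 33.0% of all rows tested. The exceptions were psme4b, above without overlap, and psmd9, psmd11a, psmd14, psme4a and psmf1, whose libraries overlapped. The median log2 fold change was -0.34 over the 55 rows and -0.02 over all rows tested. Subunits of a complex are not independent of each other. The sum of FPKM over all rows was also lower in both apobec2 KD libraries than in both injured libraries, and its part in these differences was not tested. Of the 6 cone markers, 4 were called lower in the apobec2 KD than in the injured group and 0 higher, and the part of cone RNA was not tested.

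**Figure D4:**
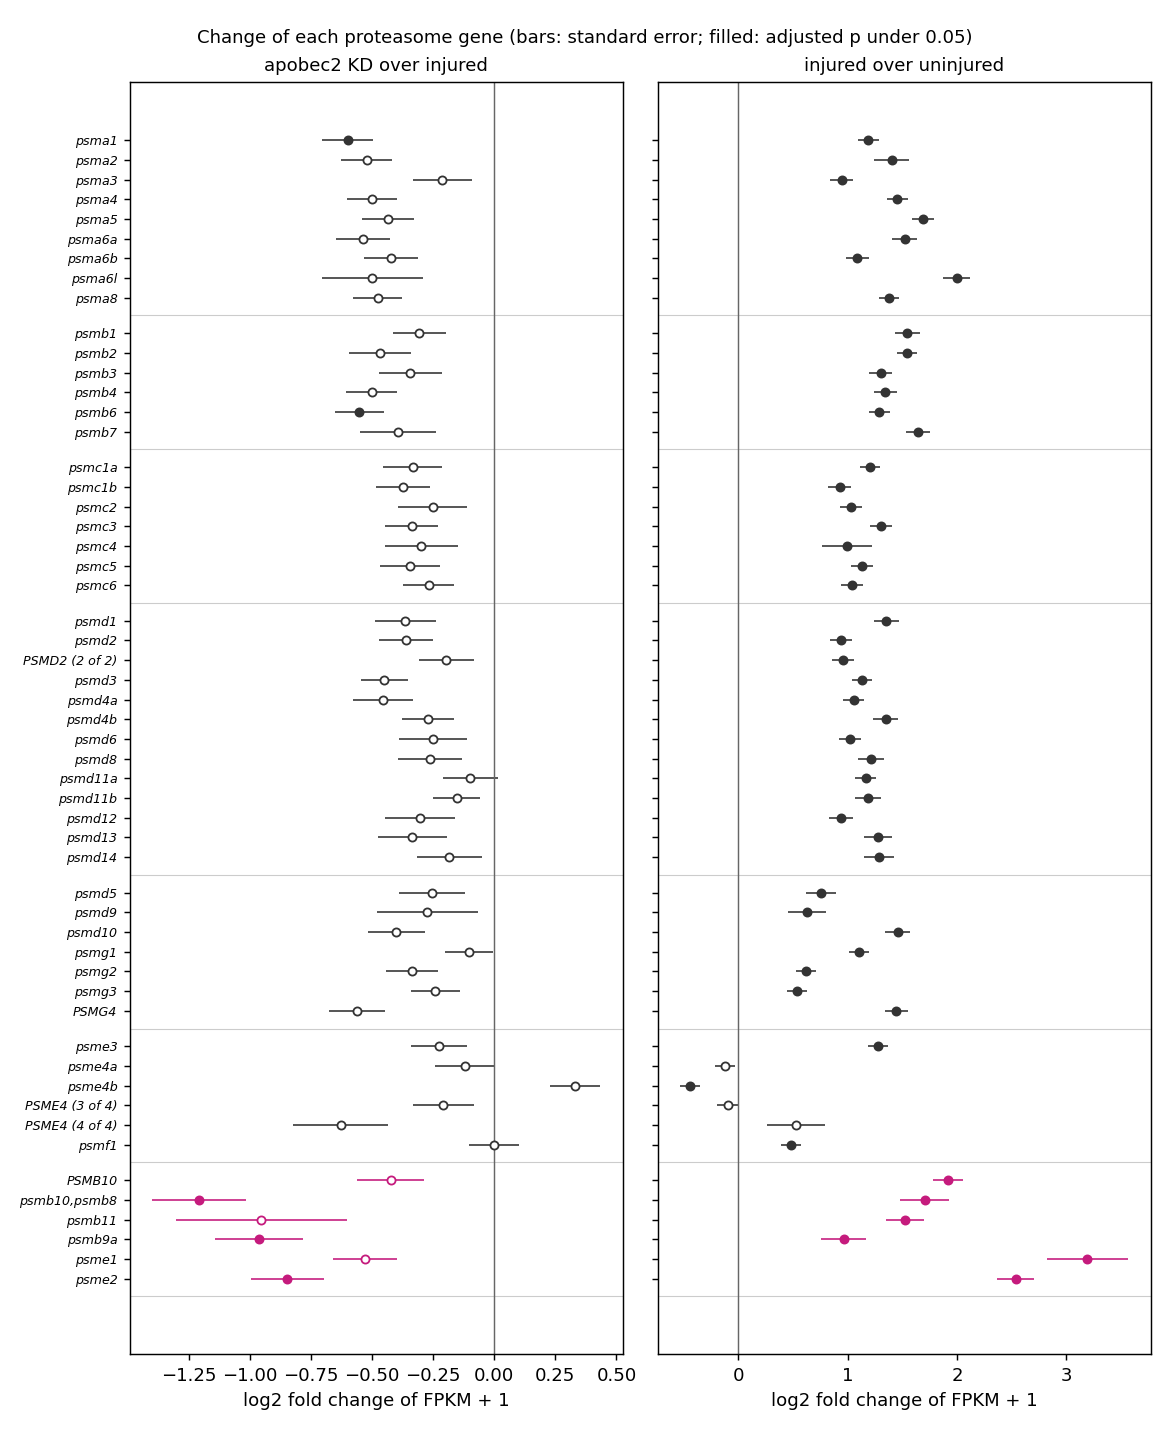
Log2 fold change of FPKM + 1 with its SE for the 54 tested members other than psmc3ip, apobec2 KD over injured on the left and injured over uninjured on the right, with filled points for an adjusted p under 0.05. The 2 comparisons share the injured libraries. On the left nearly all points lie between 0 and -0.6 and 5 are filled, with the immunoproteasome genes (coloured, at the bottom) reaching -1.21.

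Of the constitutive genes, psma1 and psmb6 were called lower in the apobec2 KD group. psma1 was at 58.2 and 60.6 FPKM in apobec2 KD libraries, 94.0 and 87.0 FPKM in injured ones and 38.7 and 39.4 FPKM in uninjured ones, a log2 fold change of apobec2 KD over injured of -0.60 ± 0.10 (adjusted p = 0.0435 by limma). The table lists psma1 at a locus with 3 further rows, GAS2 among them. For psmb6, with the values given above, the change was -0.55 ± 0.10 (adjusted p = 0.0471 by limma). In both genes the apobec2 KD libraries lay between the other 2 groups without overlap. The other alpha genes ranged up to -0.21 ± 0.12 in psma3 and the other beta genes from -0.50 ± 0.10 in psmb4 to -0.31 ± 0.11 in psmb1, none of them called. psmb4, for a beta subunit without an active site, was at 93.5 and 86.0 FPKM in apobec2 KD libraries, 125 and 129 FPKM in injured ones and 47.0 and 52.3 FPKM in uninjured ones.

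None of the 20 cap subunits was called lower or higher in this comparison by limma, and 8 were lower at an unadjusted p under 0.05, where 17.2% of all rows were. ATPase genes spanned -0.37 ± 0.11 in psmc1b to -0.25 ± 0.14 in psmc2. psmc2 was at 64.7 and 52.6 FPKM in apobec2 KD libraries, 66.9 and 72.6 FPKM in injured ones and 32.6 and 34.4 FPKM in uninjured ones. Other cap genes spanned -0.45 ± 0.12 in psmd4a to -0.10 ± 0.11 in psmd11a, which encodes a clamp between the lid and the ATPases and was at 26.8 and 23.8 FPKM in apobec2 KD libraries, 27.9 and 26.3 FPKM in injured ones and 11.8 and 11.3 FPKM in uninjured ones. In psmd11a the apobec2 KD and injured libraries overlapped, and both were above the uninjured ones. Among the chaperones, again with 0 calls by limma and 3 lower at an unadjusted p under 0.05, the lowest was PSMG4 at -0.56 ± 0.12 (adjusted p = 0.0589 by limma) and the highest psmg1 at -0.10 ± 0.10. psmg1 was at 22.1 and 21.9 FPKM in apobec2 KD libraries, 23.3 and 24.0 FPKM in injured ones and 10.5 and 10.6 FPKM in uninjured ones. psme3 had a change of -0.23 ± 0.11, psmf1 of 0.00 ± 0.10, and psme4b of 0.33 ± 0.10 (adjusted p = 0.124 by limma), the largest positive value of any member. The other PA200 rows, low in every library, had negative values and were not called. These were -0.63 ± 0.19 in PSME4 (4 of 4), -0.21 ± 0.12 in PSME4 (3 of 4) and -0.12 ± 0.12 in psme4a.

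The immunoproteasome set held the other 3 calls. In the apobec2 KD group psme2 was lower at -0.85 ± 0.15 on the log2 scale, the merged row psmb10,psmb8 with -1.21 ± 0.19 and psmb9a with -0.96 ± 0.18, with adjusted p of 0.045, 0.036 and 0.049 by limma. psme1 (-0.53 ± 0.13), PSMB10 (-0.42 ± 0.14) and psmb11 (-0.95 ± 0.35) did not pass the test. In all 6 genes both apobec2 KD libraries lay below both injured ones, as they did in 33.0% of all rows tested. The apobec2 KD to injured difference went with the fall of the microglia and macrophage markers given above, and its part was not tested. Relative to psmb6, psmb9a had a log2 change of -1.16, and relative to psmb7, PSMB10 had a log2 change of -0.05, both at the smallest p of an exact two-sided permutation test, 0.333 (n = 2 each). With 1 added to both values, the log2 change of psmb9a relative to psmb6 was -0.41, and that of injured over uninjured turned to -0.33, against 0.43 without it.

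The calls against the injured group were not stable. Leaving out any 1 of the 4 libraries left 0 of them, as did a pseudocount of 0.1 or no filter on low values. Quantile normalization or scaling to the median of ratios left 2, psmb10,psmb8 and psmb9a (with quantile normalization, calls over all rows were 675 higher and 832 lower, against 515 higher and 1021 lower as deposited), and a fit with all 6 libraries gave 12. With the column index as a block, psmb10,psmb8 kept its call, psma1, psmb6, psmb9a and psme2 lost theirs and psmc3ip gained one. The sum of FPKM over the 35 core and cap subunits did not overlap between these groups, but its share of all FPKM did, as given above. By role, the shares of the alpha ring (0.0565% and 0.0514% in the apobec2 KD libraries, 0.0627% and 0.0581% in the injured libraries), the beta ring (0.0608% and 0.0528%, against 0.0640% and 0.0622%) and the immunoproteasome set (0.0078% and 0.0072%, against 0.0105% and 0.0097%) did not overlap. Those of the ATPases (0.0415% and 0.0393%, against 0.0420% and 0.0410%) and the other cap subunits (0.0607% and 0.0521%, against 0.0589% and 0.0553%) did, as did those of the assembly chaperones (0.0132% and 0.012%, against 0.0133% and 0.013%). The regulators took a larger share in the apobec2 KD libraries, without overlap (0.0122% and 0.0121%, against 0.01% and 0.0098%). Among them only psme4b had both apobec2 KD libraries above both injured ones in FPKM. How often such shares do not overlap over all rows was not counted. The shares of the beta ring and of the core and cap leave out psmb5. Its row was at 86.7 and 362 FPKM in apobec2 KD libraries, on either side of the 240.0 and 236 FPKM in injured ones. Whether these shares overlap with psmb5 included was not computed.

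Compared with the uninjured group, the apobec2 KD group had higher proteasome levels. Of 54 rows tested, 43 were higher, 0 were lower and 11 did not pass by limma, where 22.1% of all 16777 rows tested were higher and 13.5% were lower. At an unadjusted p under 0.05, 46 were higher and 0 were lower, where 28.7% of all rows were higher and 18.8% were lower at that level. The 43 included 34 of 35 core and cap subunits, the exception being psmc4 (0.70 ± 0.25, adjusted p = 0.0993 by limma). They also included 4 of 7 chaperones, psme3, psmf1 and 3 of the 6 immunoproteasome genes. psmd9, psmg2 and psmg3 among the chaperones did not pass. The median log2 fold change was 0.82 over the 54 rows and 0.07 over all rows tested. Under quantile normalization 41 members were higher, and calls over all rows were 2915 higher and 3086 lower, against 3702 higher and 2257 lower as deposited. This comparison shares its apobec2 KD libraries with the preceding one and its uninjured libraries with the first. Leaving out 1 library lowered the count of 43 to 11 without apobec2 KD library a, 22 without apobec2 KD library b, 21 without uninjured library a and 15 without uninjured library b.

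Within the immunoproteasome set, the PA28 genes and PSMB10 stayed above the uninjured level and the chromosome 19 rows did not pass. psme1 was higher by 2.66 ± 0.38, psme2 by 1.69 ± 0.13 and PSMB10 by 1.49 ± 0.17 on the log2 scale, with adjusted p of 0.01, 0.00267 and 0.00605 by limma. The row psmb10,psmb8 had 0.50 ± 0.27, psmb11 0.57 ± 0.36 and psmb9a 0.00 ± 0.23. Without apobec2 KD library a the calls on psme1 and PSMB10 were lost, and without apobec2 KD library b that on psme1. In each of these chromosome 19 rows the apobec2 KD and uninjured libraries overlapped. The difference between these 2 sets of genes was not tested.

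psmc3ip, the row that carries the prefix without being a subunit, was at 0.850 and 0.300 FPKM in apobec2 KD libraries, 2.79 and 1.82 FPKM in injured ones and 0.330 and 0.260 FPKM in uninjured ones. It was higher in the injured than in the uninjured group by 1.34 ± 0.17 on the log2 scale (adjusted p = 0.00679 by limma), lost this call without uninjured library b, shared a locus with mlx, and did not reach the level needed for a test of apobec2 KD against uninjured. Cell cycle marker genes (14 rows) were in sum at 121 and 108 FPKM in apobec2 KD libraries, 245 and 274 FPKM in injured ones and 36.2 and 36.4 FPKM in uninjured ones, and their part in the proteasome values was not tested.

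Most of the listed genes that act with the proteasome were also called higher in the injured than in the uninjured group. Among 11 partners and transcriptional regulators this held for 10, against 28.8% of all rows tested, with a median log2 fold change of 1.02, and ddi2 did not pass the test. Counted here and not among the cap subunits, adrm1b changed by 1.12 ± 0.13 and shfm1 by 0.64 ± 0.11. The proteasome maturation protein gene pomp was at 100.1 and 88.7 FPKM in apobec2 KD libraries, 112 and 122 FPKM in injured ones and 55.9 and 52.2 FPKM in uninjured ones. nfe2l1a, whose product in mammals activates proteasome gene transcription when the protease is impaired, was at 4.85 and 4.49 FPKM in apobec2 KD libraries, 2.84 and 3.25 FPKM in injured ones and 0.48 and 0.39 FPKM in uninjured ones, the reverse order of the subunit genes between the injured groups. Its log2 fold change of injured over uninjured was 1.49 ± 0.11 (adjusted p = 0.00192 by limma), and that of apobec2 KD over injured was 0.49 ± 0.11 (adjusted p = 0.0719 by limma). Of 10 ubiquitin and delivery genes, 8 were called higher in the injured group, among them rps27a, which encodes ubiquitin fused to a ribosomal protein, by 1.99 ± 0.11 on the log2 scale, and rad23aa and nploc4 did not pass. In the apobec2 KD to injured comparison limma called 0 of these 21 genes in either direction, and at an unadjusted p under 0.05 nfe2l1a was higher and 9 others were lower, against 13.2% and 17.2% of all rows.

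Genes of antigen presentation and interferon response were counted beside the immunoproteasome set. Of 13 tested, 9 were called higher in the injured than in the uninjured group and 0 lower, against 28.8% and 18.4% of all rows. Among the 9, for antigen presentation, were b2m (1.44 ± 0.27), TAPBPL (1.14 ± 0.16), tap1 (0.88 ± 0.21) and tapbp (0.73 ± 0.11) on the log2 scale. b2ml, erap2 and mhc1uba were not called. In the apobec2 KD to injured comparison 1 was higher and 1 lower, against 3.03% and 6.0% of all rows. mhc1uba, for a class I antigen presenting molecule, had its highest level in the uninjured group, at 12.3 and 8.0 FPKM in apobec2 KD libraries, 23.8 and 7.16 FPKM in injured ones and 58.1 and 48.4 FPKM in uninjured ones. Its log2 fold change of injured over uninjured was -1.93 ± 0.57 (adjusted p = 0.0529 by limma), and it was called lower in the apobec2 KD than in the uninjured group, at -2.31 ± 0.23 (adjusted p = 0.00452 by limma). It was the 1 lower call among the 13 in that comparison, where 8 were called higher, against 13.5% and 22.1% of all rows. isg15, an interferon-induced ubiquitin-like protein gene, was at 31.7 and 24.1 FPKM in apobec2 KD libraries, 13.1 and 11.4 FPKM in injured ones and 3.33 and 1.78 FPKM in uninjured ones, higher in the apobec2 KD than in the injured group by 1.12 ± 0.17 (adjusted p = 0.0336 by limma). irf8, a macrophage transcription factor gene that also stands in the marker list, was at 2.54 and 1.60 FPKM, 13.4 and 11.6 FPKM, and 1.03 and 0.47 FPKM in the same order of groups, lower in the apobec2 KD than in the injured group at -2.15 ± 0.19 on the log2 scale (adjusted p = 0.0104 by limma). irf1b, for an interferon regulatory factor, was at 37.7 and 33.0 FPKM, 27.8 and 23.6 FPKM, and 4.74 and 3.14 FPKM, and its log2 fold change of apobec2 KD over injured was 0.44 ± 0.14 (adjusted p = 0.122 by limma).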

How the data were processed

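RNA of FACS-purified GFP+ cells from zebrafish retina was sequenced by the authors in 6 libraries, 2 per group, with CASAVA, TopHat and Bowtie2 named in the submitters' processing notes. The authors deposited FPKM per gene and library in a table whose status words are those of Cuffdiff. It lists each of 30689 gene rows 3 times, once per pair of groups. The genome build, annotation and versions are not given in the sources used here, and loci are as the table lists them. Columns with group means and with the authors' own fold changes, p-values and q-values were not used, nor were 6 further columns of per-library values, so depth is unknown here and no counting interval is given.

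The tests used limma 3.58.1 (lmFit and eBayes, R 4.3.3) on log2(FPKM + 1), each with only the 4 libraries of its groups and the rows that reached 1 FPKM in 2 or more of these. P-values were adjusted by Benjamini-Hochberg over all rows tested, with a threshold of 0.05. Ratios within a library were compared by exact two-sided permutation tests. The procedure was tested on simulated data. Symbols were matched to RefSeq (GRCz12tu) for names only, which found 50 members by symbol and 3 row names by synonym on the same chromosome. No member row carried the name psma7 or psmd7, and psma8, which RefSeq also gives under the older name psma7, was a member.

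The members and gene lists were chosen with earlier results of these data known. Described with values in every library were the immunoproteasome genes, psmb6, psmb7, the regulators and, in each other role, the members with the highest and lowest log2 fold change of injured over uninjured and of apobec2 KD over injured, beside a few others named for their role, their locus or a paralog. The alternatives were a pseudocount of 0.1, quantile normalization, scaling to the median of ratios, a trend in the prior variance, all 6 libraries in a fit, no filter, a group mean above 5 FPKM, rows of a symbol summed, the column index as a block, 1 added to both values of a ratio, and leaving out each library.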

Additional observations from a re-analysis of the deposited data

How the results depend on the processing

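No paired analysis was possible because the index in the column names does not match the replicate numbers of the sample titles. A fit with that column index as a block, which pairs nothing that the labels name, ended the calls on psmd9 for injured against uninjured, on psma1, psmb6, psmb9a and psme2 for apobec2 KD against injured, and on psmc1b and psmf1 for apobec2 KD against uninjured. Injured against uninjured, the count of proteasome genes higher stayed at 42 to 51 under every alternative, and the count lower was 2 with quantile normalization, psme4a and psme4b, and 0 to 0 when a library was left out. The median of the constitutive genes was 1.22 with a pseudocount of 0.1, 1.09 with median of ratios scaling and 1.02 after quantile normalization. Over all rows, leaving out a library gave 2709 to 3227 higher and 1187 to 1482 lower.

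For apobec2 KD against injured, the count of proteasome genes lower was 0 with a pseudocount of 0.1 or no filter, 2 with quantile normalization, median of ratios scaling or the column index as a block, 13 with a trend in the prior variance, 12 with all 6 libraries and 0 to 0 when a library was left out. The median of the constitutive genes was -0.44 to -0.24 with a library left out. Rows higher numbered 321 with a pseudocount of 0.1, 948 with all 6 libraries, 206 with no filter, 293 with the column index as a block and 18 to 45 with a library left out. Rows lower numbered 537 with no filter, 665 with the filter above 5 FPKM and 50 to 106 with a library left out. psmf1 changed sign, to 0.024 with quantile normalization, 0.023 with median of ratios scaling, and -0.051 to 0.049 with a library left out.

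For apobec2 KD against uninjured, leaving out a library gave 11 to 22 proteasome genes higher, 1260 to 1675 rows higher, 672 to 828 rows lower and a median of the constitutive genes of 0.78 to 0.92. That median was 0.73 with median of ratios scaling and 0.70 after quantile normalization. psmb9a was at -0.23 after quantile normalization, -0.036 with median of ratios scaling and -0.25 to 0.25 with a library left out, and PSME4 (4 of 4) at -0.45 to 0.26. The log2 change of psmb9a over psmb6 was -0.33 for injured against uninjured and -0.41 for apobec2 KD against injured with 1 added to both values, and -0.20 to 1.06 for injured against uninjured with a library left out. In fits without a library the lone sample was assumed to vary like the other group. For these shifts the cause was not tested.

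The 2 libraries per group and the unknown depth limit the precision. Genes below about 1 FPKM were not tested. 10 members share a listed locus with other rows, and whether counting used strand is not given in the sources used here.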
